A study of Mus musculus with 4 samples.

Results

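The clade B serpins are the protease inhibitors of the serpin superfamily that mostly stay inside the cell, and the epidermis is one of the tissues richest in them. Their expression was examined in the epidermis of C57BL/6 pups at postnatal day 0 (P0), in 2 pups with the genotype Skiv2lf/fl;K14-Cre (written Skiv2l fl/fl K14-Cre from here on) and 2 Skiv2l ctl pups. In the knockout pups Cre recombinase is driven by the keratin 14 promoter, so in these knockouts both floxed alleles of Skiv2l, the helicase of the complex that feeds mRNA to the cytoplasmic RNA exosome, are deleted in keratinocytes and not in the other cells of the tissue. The Skiv2l ctl group pools littermates with floxed alleles without Cre and Skiv2l fl/+ K14-Cre pups, and which of these each sequenced control carried is not given, so a control may itself have carried Cre and 1 floxed allele. The members were all genes whose name in the deposited tables is Serpinb followed by a number, pseudogenes left out, which gave 27 of the 54752 genes listed. Of these, 16 exceeded an FPKM of 0.5 in at least 1 library. FPKM is a fragment count divided by transcript length and by library size, so it allows levels to be compared between genes.

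A serpin presents an exposed stretch, the reactive center loop, as bait to a protease. When the protease cuts the loop, an inhibitory serpin snaps into a new shape and traps the enzyme in a covalent complex, and the residues of the loop decide which proteases are taken. In the mouse the clade B genes lie in clusters on chromosomes 1 and 13 that have grown by repeated duplication, so that several human genes have more than one mouse counterpart. In the skin these proteins are known for guarding keratinocytes against lysosomal cysteine proteases and for restraining the serine proteases that shed the cornified layer.

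Skiv2l itself had an FPKM of 19.3 and 19.1 in control libraries and 10.8 and 8.55 in knockout libraries, with no overlap (log2 fold change -0.92, standard error 0.12, adjusted p = 0.00368, limma). Depth, taken as coverage divided by FPKM, was 5.84 to 6.27 aligned gigabases per library. Fold changes are on the log2(FPKM + 1) scale, so changes of weakly expressed genes come out too small, and adjusted p-values are from limma over 13609 protein-coding genes with Benjamini-Hochberg adjustment. A gene was called higher or lower at an adjusted p under 0.05. For 2 pups against 2, no exact permutation test can reach a two-sided p below 0.333, so every call rests on the spread that limma shares across genes. Fewer cells of a type and less RNA per cell cannot be told apart in these bulk samples.

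The total of the family differed little between the genotypes while its make-up differed a good deal. Summed over the 27 genes, FPKM was 867 and 868 in control libraries and 930 and 862 in the knockout libraries, so the groups overlapped. The family held 0.241% and 0.236% of all FPKM in controls and 0.249% and 0.227% in the knockouts. The largest contributor changed place. Serpinb12 made up 26.0% and 24.1% of the family total in controls and 17.5% and 15.6% in the knockouts, whereas Serpinb3a went from 13.8% and 12.9% to 21.3% and 27.0%. The ratio of Serpinb12 to Serpinb3a by FPKM was 1.88 and 1.87 in control libraries and 0.824 and 0.577 in the knockout libraries. The chromosome 1 cluster carried most of this RNA, with a summed FPKM of 833 and 828 in controls and 827 and 764 in knockouts. The smaller chromosome 13 sum was 33.7 and 40.2 in controls and 102 and 97.9 in knockouts, with no overlap.

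**Figure D1:**
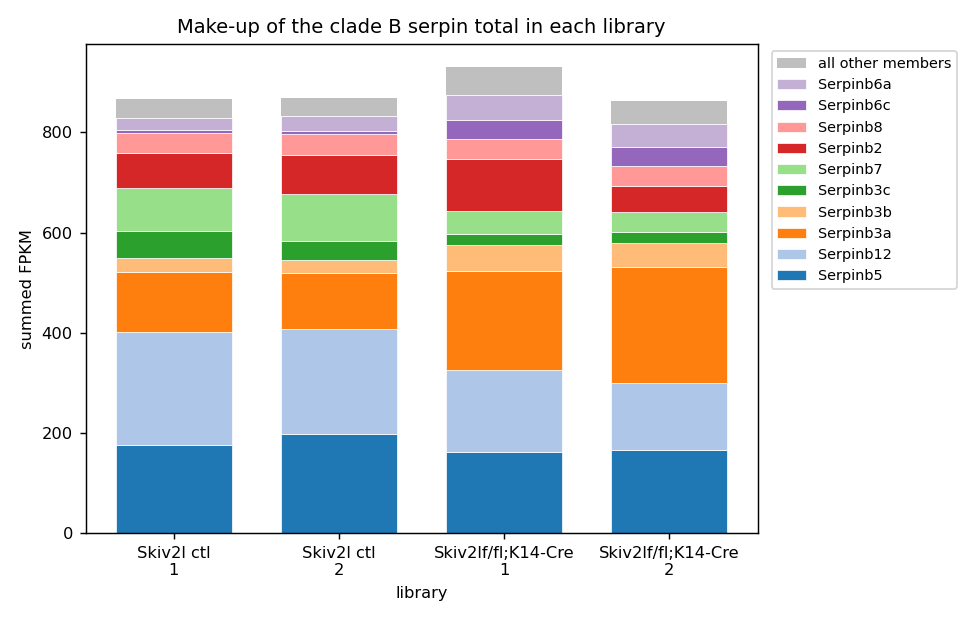
Stacked bars of FPKM (linear axis from 0) for the 4 libraries, 1 bar per pup, with the 10 members that reach the highest FPKM in any library as separate blocks and all other members in grey. The bars are of similar height, from 862 to 930, while the Serpinb3a block is taller and the Serpinb12, Serpinb7 and Serpinb3c blocks are shorter in both Skiv2l fl/fl K14-Cre libraries.

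Of the 16 genes above an FPKM of 0.5, 15 were protein-coding and entered the test. Of these 15 genes, 7 were called higher (Serpinb3a, Serpinb3b, Serpinb3d, Serpinb11, Serpinb1a, Serpinb6a and Serpinb6c) and 5 lower (Serpinb7, Serpinb3c, Serpinb12, Serpinb1b and Serpinb6b), while Serpinb5, Serpinb8 and Serpinb2 were not called. Over all 13609 genes tested, 8.99% were called higher and 25.4% lower. By the values alone, the knockouts lay wholly above both controls for 7 members and wholly below for 6, against 18.2% and 55.3% of all genes tested. The median log2 fold change of the 15 members was 0.0040, that of all tested genes was -0.20, and the medians of the absolute values were 0.84 and 0.30. Members and all tested genes were not matched by expression level, and on this scale changes of weakly expressed genes come out too small. Scaling each library to the same median moved the median of all genes to -0.03 and the split of called genes from 1223 higher and 3455 lower to 1894 higher and 1623 lower. A member with a log2 fold change of 0 therefore lies 0.20 above the median gene. Serpinb6b and Serpinb1b passed the filter through the control libraries alone, which by itself favors a lower value in the knockouts.

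**Figure D2:**
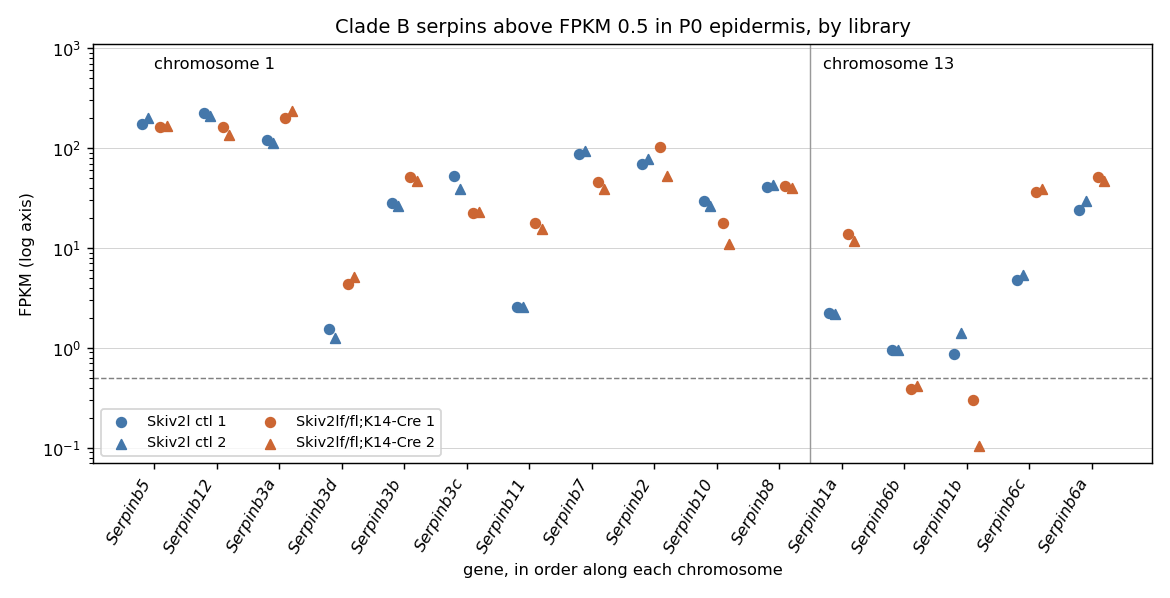
FPKM on a log axis for the 16 clade B serpins above 0.5 (dashed line) in at least 1 library, in order along chromosomes 1 and 13. Blue points are the 2 Skiv2l ctl libraries and orange points the 2 Skiv2l fl/fl K14-Cre libraries. The colors separate by the widest step for Serpinb6c, Serpinb11 and Serpinb1a, and overlap for Serpinb2 and Serpinb8.

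The Serpinb3 genes are the mouse counterparts of human SERPINB3 and SERPINB4, the squamous cell carcinoma antigens, which are known to inhibit cathepsins and chymotrypsin-like serine proteases and to be raised in psoriatic skin. There are 4 of them side by side on the minus strand of chromosome 1, and they are close copies: the coding sequence of Serpinb3a was 92.9% identical to that of Serpinb3b, 91.3% to Serpinb3c and 89.2% to Serpinb3d. The part of the sequence that meets the protease is less alike in some of them. The codons from the hinge of the reactive center loop to the conserved His-Pro-Phe motif after it are given here, 5′ to 3′ on the coding strand, with capitals at bases that differ from Serpinb3a. They come from the GENCODE M21 transcripts on GRCm38, and in each gene they lie within the last of 7 coding exons, at chr1:107046082-107046174 for Serpinb3a, chr1:107154435-107154527 for Serpinb3b, chr1:107271695-107271784 for Serpinb3c and chr1:107078259-107078351 for Serpinb3d.
Serpinb3a: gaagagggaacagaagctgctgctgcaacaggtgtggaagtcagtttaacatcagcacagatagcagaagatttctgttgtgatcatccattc
Serpinb3b: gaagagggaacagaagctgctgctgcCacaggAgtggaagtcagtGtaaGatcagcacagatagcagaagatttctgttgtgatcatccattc
Serpinb3c: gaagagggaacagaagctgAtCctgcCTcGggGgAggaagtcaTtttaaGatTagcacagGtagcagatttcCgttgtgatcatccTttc
Serpinb3d: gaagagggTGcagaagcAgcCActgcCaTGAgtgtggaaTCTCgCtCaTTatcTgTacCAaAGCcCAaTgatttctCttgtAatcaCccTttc
Over these codons Serpinb3b differed from Serpinb3a at 4 positions. Serpinb3c differed at 16, including a codon it lacks, and Serpinb3d at 31, which left 95.7%, 82.8% and 66.7% identity respectively, so this stretch was less alike than the whole coding sequence for Serpinb3c and Serpinb3d and more alike for Serpinb3b.

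Serpinb3a, Serpinb3b and Serpinb3d rose, while Serpinb3c moved the other way. Serpinb3a (107045587 to 107052303) had an FPKM of 120 and 112 in control libraries and 198 and 232 in the knockout libraries, so both knockouts were above both controls. It rose 1.86-fold by mean FPKM (log2 fold change 0.88, standard error 0.10, adjusted p = 0.00239, limma) and was the member with the highest FPKM in the knockouts. Serpinb3b had an FPKM of 28.2 and 26.5 in controls and 51.6 and 46.8 in knockouts and rose 1.80-fold (log2 fold change 0.82, standard error 0.09, adjusted p = 0.00192, limma). The ratio of Serpinb3a to Serpinb3b stayed between 3.83 and 4.97 in all 4 libraries, with overlap between the genotypes. Serpinb3d, the copy with the lowest level, went from an FPKM of 1.53 and 1.27 to 4.36 and 5.08 and rose 3.37-fold (log2 fold change 1.25, standard error 0.14, adjusted p = 0.00177, limma).

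Serpinb3c fell. Its FPKM was 52.9 and 38.7 in control libraries and 22.2 and 23.2 in the knockouts, 2.02-fold lower (log2 fold change -0.97, standard error 0.15, adjusted p = 0.00583, limma), and the controls differed from each other by more than the knockouts did. In both controls Serpinb3c was above Serpinb3b, and in both knockouts it was below, the ratio of Serpinb3b to Serpinb3c being 0.532 and 0.685 in controls and 2.32 and 2.02 in knockouts. The sum of the pair showed no such step, with an FPKM of 81.1 and 65.2 in controls and 73.9 and 69.9 in knockouts. The deposited values assign reads to these genes in a way not given in the sources used here. In the annotation Serpinb3b runs from 107153940 to 107278361 and so spans Serpinb3c (107271201 to 107278371), the pair shares 35 exonic bases, and 2.28% of the 75-base stretches of Serpinb3b and 2.59% of those of Serpinb3c occur in another gene's transcripts. A real exchange between the copies and an exchange of reads between them cannot be told apart from these tables. For Serpinb3a the share of such stretches was 8.09%, almost all of it with Gm8080, an unprocessed pseudogene in the same cluster whose FPKM was 6.97 and 6.35 in controls and 11.4 and 9.41 in knockouts.

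**Figure D3:**
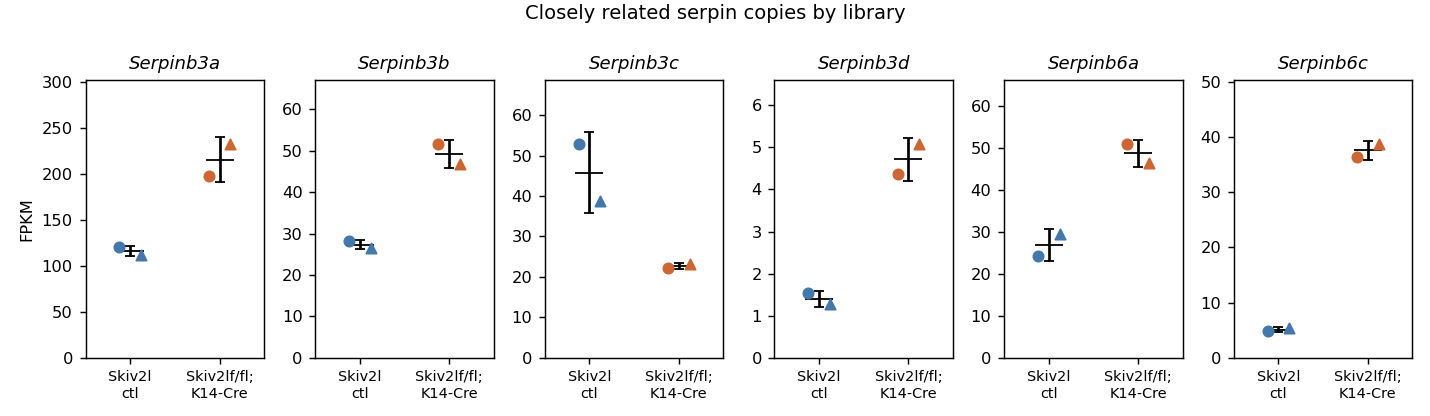
FPKM (linear axes from 0, a separate scale in each panel) of the 4 Serpinb3 genes and of Serpinb6a and Serpinb6c, with 1 point per library and the mean with its SD (n = 2 pups) in black. The knockout points lie above the control points in every panel except that of Serpinb3c, where they lie below.

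The start regions of Serpinb3b and Serpinb3c are close copies while the levels of the genes moved in opposite directions, and these regions are shown for that reason. They are the RefSeq promoter windows on GRCm38.p6, 250 bases before to 50 bases after the start annotated in RefSeq, 5′ to 3′ on the minus strand, at chr1:107161065-107161364 for Serpinb3b and chr1:107278322-107278621 for Serpinb3c, with capitals at bases that have no equal in the other sequence. In the annotation of the FPKM values Serpinb3b begins at 107278361, beside the start of Serpinb3c at 107278371. That further start of Serpinb3b is not in the window shown for it.
Serpinb3b: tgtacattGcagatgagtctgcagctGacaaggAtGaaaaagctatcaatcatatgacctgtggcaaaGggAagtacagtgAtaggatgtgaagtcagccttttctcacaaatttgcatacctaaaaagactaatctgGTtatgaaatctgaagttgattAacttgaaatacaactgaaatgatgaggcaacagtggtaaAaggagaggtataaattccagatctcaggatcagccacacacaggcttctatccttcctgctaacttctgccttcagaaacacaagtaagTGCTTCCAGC
Serpinb3c: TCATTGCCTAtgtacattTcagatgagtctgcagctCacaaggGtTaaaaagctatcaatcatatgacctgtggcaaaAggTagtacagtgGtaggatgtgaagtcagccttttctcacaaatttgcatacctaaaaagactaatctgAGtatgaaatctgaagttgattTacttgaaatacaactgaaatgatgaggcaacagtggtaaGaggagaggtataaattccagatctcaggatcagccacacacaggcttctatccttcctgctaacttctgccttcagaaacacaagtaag
They were 90.0% identical when the ends, where one window overhangs the other, were counted as differences. Over the part that both windows cover, the only differences were 11 substitutions, so that part is more alike than this percentage. Against Serpinb3a the promoter identity, with overhangs again counted as differences, was 79.3% for Serpinb3b and 74.5% for Serpinb3c, and that of Serpinb3d was 40.1%.

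Serpinb11, whose mouse protein is an inhibitor of trypsin-like proteases, lies next to the Serpinb3 genes, on the plus strand, from 107361198 to 107380475. Its FPKM was 2.54 and 2.58 in control libraries and 17.7 and 15.6 in the knockouts, so the controls were nearly equal and both knockouts were well above them. It rose 6.52-fold by mean FPKM (log2 fold change 2.31, standard error 0.11, adjusted p = 0.000133, limma) and ranked 87 among the 13609 genes by log2 fold change. No 75-base stretch of its transcripts occurs in another gene.

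Its neighbor on the same strand, Serpinb7 (107399655 to 107452689), moved the other way. Serpinb7 is expressed in the upper epidermis, and its loss in people causes Nagashima-type palmoplantar keratosis, a disorder of the skin barrier. Its FPKM was 86.5 and 93.4 in controls and 46.2 and 38.6 in knockouts, 2.12-fold lower (log2 fold change -1.07, standard error 0.11, adjusted p = 0.00149, limma), and it too shares no 75-base stretch. By FPKM the ratio of Serpinb11 to Serpinb7 was 0.0294 and 0.0276 in control libraries and 0.384 and 0.405 in the knockout libraries.

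Serpinb12 (plus strand, 106934449 to 106957080), a serpin of surface epithelia that inhibits trypsin-like proteases, was the most abundant member in the controls. Its FPKM was 226 and 209 in control libraries and 163 and 134 in knockouts, 1.46-fold lower (log2 fold change -0.55, standard error 0.11, adjusted p = 0.0151, limma). The knockouts lay below the controls, but the call did not survive median scaling (log2 fold change -0.34, adjusted p = 0.0670) or the loss of either control library (adjusted p = 0.115 without control 1 and 0.0833 without control 2).

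Maspin and the furin inhibitor of the family were not called. Serpinb5 (maspin), which has the serpin fold without inhibiting proteases by the usual mechanism, had an FPKM of 176 and 198 in controls and 162 and 166 in knockouts. The knockouts were just below the controls (log2 fold change -0.19, standard error 0.09, adjusted p = 0.152, limma), and the value turned to 0.03 under median scaling. Serpinb8, an inhibitor of furin whose loss causes peeling skin in people, had an FPKM of 41.2 and 42.6 in controls and 41.5 and 39.6 in knockouts, with overlap (log2 fold change -0.05, standard error 0.08, adjusted p = 0.676, limma). Its value was 0.16 under median scaling and 0.03 under quantile normalization, so no direction can be given for it.

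Serpinb2, also called plasminogen activator inhibitor type 2, is the urokinase inhibitor of the family. Its FPKM was 68.8 and 77.3 in controls and 103 and 52.0 in the knockouts, which stood on either side of the controls. The log2 fold change was 0.0040 with a standard error of 0.29, the widest of any member (adjusted p = 0.993, limma). It depended on single libraries: without knockout 1 it was -0.48 (adjusted p = 0.0293) and without knockout 2 it was 0.49 (adjusted p = 0.0316). Serpinb10 (bomapin), known from hematopoietic cells, starts inside the annotated span of Serpinb2 and shares 291 exonic bases with it. GENCODE M21 classes it as a polymorphic pseudogene, so it was tested with the 19572 genes of every type that passed the filter. Its FPKM was 29.7 and 26.4 in controls and 17.8 and 10.9 in knockouts, 1.95-fold lower (log2 fold change -0.95, standard error 0.21, adjusted p = 0.0259, limma), in a test that called 15.8% of genes lower. Without control 1 the adjusted p was 0.195, without control 2 it was 0.158, and under median scaling it was 0.0554. Of the 75-base stretches, 8.998% of those of Serpinb2 occur in Serpinb10 and 6.07% of those of Serpinb10 in Serpinb2. The sum of the pair was 98.5 and 104 in controls and 121 and 62.9 in knockouts by FPKM.

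**Figure D4:**
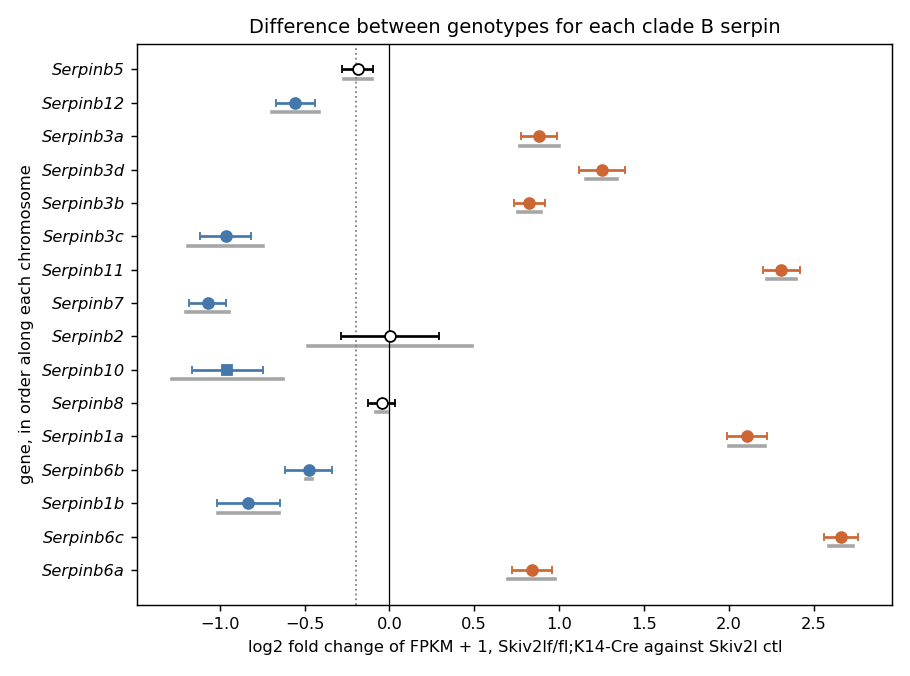
Log2 fold change of FPKM + 1 (Skiv2l fl/fl K14-Cre against Skiv2l ctl) with its standard error for each member tested, in order along the chromosomes. Orange is called higher, blue called lower and white not called, the square marks Serpinb10 from the test of genes of every type, the grey bar under each point spans the values when each library is left out in turn, and the dotted line is the median of all protein-coding genes (-0.20). The grey bar of Serpinb2 runs from -0.48 to 0.49, while those of Serpinb6c, Serpinb11 and Serpinb1a stay above 2.

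On chromosome 13 the 5 genes above an FPKM of 0.5 all belonged to the Serpinb6 and Serpinb1 groups, and 3 rose and 2 fell. SERPINB6, of which Serpinb6a is the mouse counterpart, is a widely expressed inhibitor of cathepsin G and trypsin-like proteases. Serpinb6c (ENSMUSG00000052180.15, minus strand, 33879816 to 33905708) had an FPKM of 4.79 and 5.40 in control libraries and 36.4 and 38.8 in the knockouts, the widest step of any member. It rose 7.37-fold by mean FPKM (log2 fold change 2.66, standard error 0.10, adjusted p = 5.16e-05, limma) and ranked 64 of all tested genes by log2 fold change. Only 0.380% of its 75-base stretches occur in another gene.

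Serpinb6a, whose coding sequence is 85.8% identical to that of Serpinb6c, started from a higher level. Its FPKM was 24.2 and 29.6 in controls and 51.1 and 46.5 in knockouts, and it rose 1.81-fold (log2 fold change 0.84, standard error 0.12, adjusted p = 0.00413, limma). By FPKM Serpinb6c stood at 0.198 and 0.182 of Serpinb6a in controls and at 0.713 and 0.833 in the knockouts. Of the 75-base stretches of Serpinb6a, 22.0% occur in other genes, 11.7% in Nqo2, a gene inside the cluster whose FPKM was 0.813 and 1.05 in controls and 1.05 and 0.494 in knockouts. Serpinb6b, 85.7% identical to Serpinb6a, was low throughout. Its FPKM was 0.949 and 0.946 in controls and 0.385 and 0.419 in knockouts (log2 fold change -0.47, standard error 0.14, adjusted p = 0.0427, limma), a call that was lost under 8 of the 12 alternatives that gave it a value, among them each left-out library and the replicate numbers as a block (adjusted p = 0.0715).

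The Serpinb1 group is known for shielding cells from the serine proteases of neutrophil granules. Serpinb1a (ENSMUSG00000044734.16, minus strand, 32842092 to 32851185), the counterpart of human SERPINB1, had an FPKM of 2.24 and 2.18 in controls and 13.9 and 11.9 in knockouts and rose 5.83-fold (log2 fold change 2.11, standard error 0.12, adjusted p = 0.000235, limma). Serpinb1b, with 89.8% identity to Serpinb1a in its coding sequence, had an FPKM of 0.878 and 1.42 in controls and 0.299 and 0.103 in knockouts. It was called lower (log2 fold change -0.83, standard error 0.19, adjusted p = 0.0191, limma), but not without control 2 (adjusted p = 0.0831) or knockout 2 (adjusted p = 0.0723), and its level was near the filter. Serpinb1c was listed at 0 in all 4 libraries.

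The remaining 11 genes did not exceed an FPKM of 0.5 in any library. Serpinb13, known in people as headpin or hurpin and as an inhibitor of cathepsin L, was listed at 0.283 and 0.439 in controls and 0.194 and 0.0732 in knockouts, which set it apart from the other chromosome 1 genes, all of which passed. Serpinb9, the granzyme B inhibitor of lymphocytes, had an FPKM of 0.305 and 0.276 in controls and 0.0855 and 0.0749 in knockouts. Serpinb9b lay between 0.0978 and 0.367. Serpinb9e, Serpinb9f and Serpinb6e were listed at 0 in both controls and under 0.05 in both knockouts. Serpinb1c, Serpinb9c, Serpinb9d, Serpinb9g and Serpinb6d were at 0 in all 4 libraries. For Serpinb9f and Serpinb9g, 65.5% and 44.9% of their 75-base stretches occur in other genes, so their low values could not be assigned with certainty.

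The proteases that clade B serpins are known to meet differed by class. The count of each list below is to be read beside all tested genes, of which 8.99% were called higher and 25.4% lower. Their median log2 fold change was -0.20. No list was tested as a set, and the list calls are given under the main setting only. In the list of lysosomal cathepsins, which Serpinb3a and its copies are known to inhibit in part, 3 of 11 tested genes rose and none fell, with a median log2 fold change of 0.11. Ctsh rose from an FPKM of 45.02 and 48.4 to 90.2 and 82.5 (log2 fold change 0.87, adjusted p = 0.00147, limma). Ctsl, the cathepsin L of the epidermis, rose from 56.9 and 56.5 to 104 and 92.9 (log2 fold change 0.78, adjusted p = 0.00209, limma), and Ctsd, an aspartic protease outside the reach of serpins, by 0.51 (adjusted p = 0.0231, limma). The most abundant genes of the list that were not called were Ctsa (log2 fold change -0.19) and Ctsb (0.43, adjusted p = 0.0548, limma).

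Of 17 tested serine proteases of the epidermis, 12 rose and 1 fell, with a median log2 fold change of 0.46. Most are kallikreins, which cut the junctions between cornified cells. Klk6 rose from an FPKM of 6.81 and 9.39 to 306 and 263 (log2 fold change 4.98, adjusted p = 2.94e-05, limma), Klk12 by 2.59 and Klk10 by 2.10 on the log2 scale. Klk5, which starts the kallikrein cascade, was not called, with an FPKM of 285 and 271 in controls and 230 and 283 in knockouts, nor was Prss8 (log2 fold change 0.08). Tmprss4 fell by 0.60 on the log2 scale (adjusted p = 0.00311, limma).

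The leukocyte serine proteases, the targets of Serpinb1a, Serpinb6a and Serpinb9, were nearly missing from these libraries. Of 15 genes listed, 14 stayed under an FPKM of 0.5 in all 4 libraries and 5 were at 0 throughout, Elane and Gzmb among them. Their summed FPKM was 2.36 and 2.01 in controls and 1.60 and 0.601 in knockouts. Gzmm, the one gene tested, had a log2 fold change of -0.64 (adjusted p = 0.0505, limma).

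Of 6 tested genes of the urokinase system, the target of Serpinb2, 2 rose and none fell (median log2 fold change 0.07). Plaur, the urokinase receptor, rose from an FPKM of 1.13 and 1.43 to 6.74 and 3.55 (log2 fold change 1.38, adjusted p = 0.0103, limma), with the knockouts far apart. Plat rose by 0.59 (adjusted p = 0.0430, limma), and Plau itself had an FPKM of 20.5 and 26.7 in controls and 24.1 and 16.6 in knockouts and was not called (log2 fold change -0.22, adjusted p = 0.410, limma). Of 9 tested caspases, none rose and 4 fell (median -0.33), where 25.4% of all tested genes fell (median -0.20). The 4 were Casp1, which matures interleukin-1, with a log2 fold change of -1.23, Casp2 with -0.62, Casp14, the caspase of the cornified layer, with -0.56 and Casp9 with -0.47. Casp8 and Casp6 were the most abundant of those not called, with log2 fold changes of 0.09 and -0.17.

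Other protease inhibitors of the epidermis stood higher more often than lower. Of 16 tested, 10 rose and 1 fell, with a median log2 fold change of 0.69, where 8.99% of all tested genes rose and 25.4% fell. Slpi, a secreted inhibitor of neutrophil elastase, rose from an FPKM of 1.53 and 1.496 to 99.6 and 71.3 (log2 fold change 5.09, adjusted p = 3.12e-05, limma), Wfdc12 by 2.96 and Stfa2, a cysteine protease inhibitor of the stefin A type, by 1.90. Cst3 fell by 0.56 (adjusted p = 0.00465, limma), while Spint2 (-0.12) and Spint1 (-0.03) were not called. Of 13 tested serpins of other clades 3 rose and 1 fell, with a median log2 fold change of -0.01. Serpina9 rose from an FPKM of 7.54 and 10.5 to 32.1 and 32.9 (log2 fold change 1.76, adjusted p = 0.000843, limma), Serpina3j by 0.91 and Serpina3n by 0.67. Serpina12, the most abundant serpin outside clade B in these libraries, fell by 0.47. By FPKM, Serpina3j was 0.173 and 0.269 in controls and 0.955 and 1.68 in knockouts. Serpina3n was 0.0446 and 0.0154 in controls and 0.514 and 0.762 in knockouts. Both passed the filter through the knockouts alone, which by itself favors a higher value there. So did Wfdc12, with 0.210 and 0.398 in controls and 7.25 and 11.4 in knockouts. Serpinh1, the collagen chaperone, had a log2 fold change of -0.24 (adjusted p = 0.0838, limma).

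**Figure D5:**
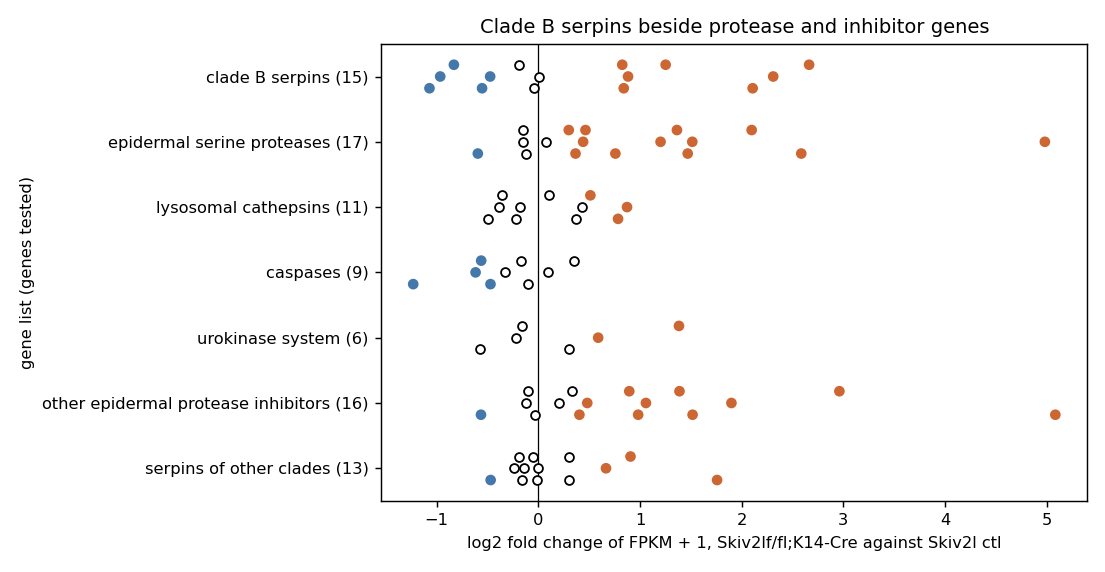
Log2 fold change of FPKM + 1 for each tested gene of the clade B serpins and of 6 lists of proteases and inhibitors, with the number tested in parentheses. Orange points are called higher, blue points called lower and white points not called, and the vertical spread within a row carries no value. Clade B serpins lie on both sides of 0, the epidermal serine proteases and the other inhibitors mostly to the right, and the called caspases to the left.

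Of 17 transcription factors known from the epidermis and from serpin promoters, all passed the filter, 7 rose and 2 fell, with a median log2 fold change of 0.17. Of all tested genes, 8.99% rose and 25.4% fell. Ehf rose from an FPKM of 7.59 and 7.92 to 39.2 and 45.2 (log2 fold change 2.30, adjusted p = 0.000100, limma). Elf3 rose by 1.66 and Junb, a subunit of AP-1, by 1.10, although the knockout libraries differed widely for both, Junb with an FPKM of 136 and 261. Jund fell by 0.62 and Cebpa by 0.42. Klf4 and Cebpb were the most abundant of those not called, with log2 fold changes of 0.12 for each.

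The promoter windows of the members were searched for 3 letter patterns on both strands: TGANTCA, known as the AP-1 motif, TTCNNNGAA, bound by STAT proteins, and TTGCNNAA, bound by C/EBP proteins. RefSeq windows were found for 25 of the 27 members, 31 windows in all, and Serpinb1a and Serpinb13 had none. The AP-1 letters occurred in 8 of the 31 windows, which is 25.8%, against 7.81% of the 32851 promoters in the table. Serpinb2 has a pair of overlapping windows that hold the same AP-1 site, which is therefore counted in both. All 8 belonged to the 7 genes Serpinb5, Serpinb12, Serpinb11, Serpinb7, Serpinb2, Serpinb10 and Serpinb8, that is to every chromosome 1 gene with a window outside the Serpinb3 group. None of the Serpinb3 windows and none of the 18 windows on chromosome 13 held them. Of these 7 genes Serpinb11 was called higher and Serpinb7 and Serpinb12 were called lower. Serpinb10 was called lower in the test of genes of every type, and Serpinb5, Serpinb8 and Serpinb2 were not called. Called members with the letters and called members without them each went in both directions. The part of the letters in these changes was not tested. The windows of the 3 that changed among protein-coding members are shown, 5′ to 3′ on the plus strand of GRCm38.p6, with the AP-1 letters in capitals, at chr1:107362064-107362363 for Serpinb11, chr1:107422439-107422738 for Serpinb7 and chr1:106934199-106934498 for Serpinb12.
Serpinb11: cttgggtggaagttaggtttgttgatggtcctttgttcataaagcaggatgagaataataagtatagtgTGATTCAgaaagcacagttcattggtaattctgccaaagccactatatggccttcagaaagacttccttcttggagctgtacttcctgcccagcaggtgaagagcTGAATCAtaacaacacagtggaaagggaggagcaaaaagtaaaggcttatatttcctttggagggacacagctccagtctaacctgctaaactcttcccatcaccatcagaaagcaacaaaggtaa
Serpinb7: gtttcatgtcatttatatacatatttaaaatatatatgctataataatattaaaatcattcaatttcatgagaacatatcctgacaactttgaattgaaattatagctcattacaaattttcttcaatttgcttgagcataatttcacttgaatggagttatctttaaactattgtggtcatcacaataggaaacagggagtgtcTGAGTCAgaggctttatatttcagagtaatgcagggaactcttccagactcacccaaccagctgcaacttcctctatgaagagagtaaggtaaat
Serpinb12: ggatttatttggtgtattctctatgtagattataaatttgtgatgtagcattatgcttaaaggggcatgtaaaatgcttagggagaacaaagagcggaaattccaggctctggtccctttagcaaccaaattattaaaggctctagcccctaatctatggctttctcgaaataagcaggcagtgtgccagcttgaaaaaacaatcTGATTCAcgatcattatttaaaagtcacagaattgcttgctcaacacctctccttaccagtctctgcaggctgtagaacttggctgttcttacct
In Serpinb7 and Serpinb12 the match began 45 bases before the start annotated in RefSeq, and in Serpinb11 there were 2 matches, beginning 181 and 76 bases before it. In the annotation of the FPKM values Serpinb11 begins further upstream, at 107361198, and so does Serpinb7, at 107399655. Those starts are not in the windows shown for these genes, whereas that of Serpinb12 is. Serpinb12 has a further start with its own window, which held no match. The STAT letters occurred in 4 of the 31 windows (12.9%, against 8.30% of all promoters), in Serpinb2, Serpinb6a and Serpinb9c, the site of Serpinb2 again in both of its windows. The C/EBP letters occurred in 4 (12.9%, against 10.8%), in Serpinb12, Serpinb3d and Serpinb2. No matches of different patterns overlapped. A match of letters is a description of the sequence and no measure of binding.

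The chromosome 1 cluster spans 106861173 to 107610484 and holds no protein-coding gene of another kind. The 3 protein-coding genes before it, Bcl2, Kdsr and Vps4b, were not called, with log2 fold changes of -0.34, -0.01 and -0.13. Of the 3 after it, Cdh7 and Cdh19 did not pass the filter and Dsel fell by 0.49 (adjusted p = 0.0438, limma). The chromosome 13 cluster spans 32842092 to 34002794 and holds 3 protein-coding genes that are not members. Gm11397 was at 0 in every library, and Nqo2 and the start of Ripk1 lie at the end of the cluster. Neither Nqo2 nor Ripk1 was called (log2 fold change -0.14 for Nqo2 and 0.20 for Ripk1). Beyond it Bphl fell by 0.91 (adjusted p = 0.00416, limma), and the tubulin genes Tubb2a and Tubb2b rose by 1.63 and 1.58, with an FPKM for Tubb2a of 98.1 and 109 in controls and 337 and 306 in knockouts. On the other side Wrnip1 was not called (log2 fold change 0.20).

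The libraries carried the keratinocyte markers of epidermis. The marker counts below stand beside 8.99% of all tested genes called higher and 25.4% called lower. Of 6 basal markers 2 rose, Krt14 by 2.05 and Itgb4 by 0.60 on the log2 scale, and 1 fell, Krt15 by 1.89. Krt5 was at an FPKM of 1759 to 2075 and was not called (log2 fold change -0.21), nor were Itga6 (-0.17) and Trp63 (-0.08). Of 6 granular-layer markers 3 fell, Flg2 by 1.44, Lor by 0.92 and Casp14 by 0.56, and 1 rose, Tgm3 by 0.59. Ivl (log2 fold change -0.31) and Hrnr (0.26) were not called, and Hrnr was higher in both knockouts than in both controls. The summed FPKM of that list was 2952 and 2764 in controls and 2258 and 2027 in knockouts. The list went in both directions, and its part in the falls of Serpinb7 and Serpinb12 was not tested. Of 9 neutrophil markers 8 stayed under an FPKM of 0.5 in all libraries, Ly6g and Elane were at 0 throughout, and Cxcr2 rose from 0.127 and 0.208 to 6.51 and 5.56. The sum of that list went from 0.701 and 1.38 to 7.54 and 6.34, and nearly all of this step was Cxcr2. Cxcr2 passed the filter through the knockouts alone, and no other gene of the list could be tested. Serpinb1a is known from neutrophils, and the part of such cells in the rise of Cxcr2 or of Serpinb1a was not tested. Of 8 macrophage and Langerhans cell markers 4 fell and none rose, with a summed FPKM of 39.4 and 49.4 in controls and 24.1 and 20.4 in knockouts. Of 5 tested fibroblast markers 2 fell, Dcn (log2 fold change -1.60) and Col1a2 (-0.61), and 3 were not called. Of the uncalled, Pdgfra (0.44) was higher in both knockouts than in both controls, and passed the filter through the knockouts alone. The 6 fibroblast markers summed to 61.4 and 69.0 in controls and 21.9 and 25.0 in knockouts, of which Dcn held 57.0 and 62.7 in controls and 16.9 and 21.4 in knockouts. The part of macrophages, Langerhans cells or fibroblasts in the falls of Serpinb10 and Serpinb6b was not tested. The lists of T and NK cells, mast cells and endothelium had no called gene, with sums of 2.39 to 4.44, 6.63 to 7.83 and 0.618 to 0.941. Of the 5 melanocyte markers Tyrp1 rose by 0.83 and none fell, and of 6 suprabasal markers Dsc1 rose by 0.69 and Krt1 fell by 0.51.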

How the data were processed

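Total RNA from P0 epidermis of 4 pups, 2 per genotype, was sequenced, and the pups are separate animals. The authors selected RNA by integrity, ran a workflow of their institution on GRCm38 and deposited 1 table per library. The deposited FPKM values are scaled for length and library size, TPM, also deposited, is scaled to a common sum, and the deposited coverage signal is mean per-base depth. The aligner and the use of strand are not given in the sources used here. Counts were not used, so no counting interval is given, and the number of pups limits precision. FPKM of repeated identifiers was summed. Protein-coding genes of GENCODE M21 with FPKM above 0.5 in at least 1 library were compared, after log2 transformation of FPKM + 1, by limma 3.58.1 (R 4.3.3, eBayes with a trend, two-sided, Benjamini-Hochberg), a script tested on simulated data. Shared 75-base stretches, loop codons and identities came from M21 transcripts (Biopython 1.88), promoters from RefSeq. Named genes are every member, and per list up to 3 called with the largest change and up to 2 uncalled with the highest mean FPKM, and the nearest protein-coding genes. Members and lists were chosen with earlier results of these data known. Klk14, Tmprss4, Casp9, Cst3, Serpina12, Jund, Cebpa and single marker genes fall outside this rule and were named after their values were seen. Protein sequences were not used here. Alternatives were a pseudocount of 0.1, FPKM above 1 in at least 2 libraries, TPM, no filter, quantile normalization, median scaling, a replicate block, no trend, genes of every type, and leaving out each library. Same-numbered pups did not deviate together (correlation -0.08).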

Additional observations from a re-analysis of the deposited data

How the results depend on the processing

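With 2 pups per genotype, a left-out library leaves 1 sample that is assumed to vary like the others, and depth without counts sets no limit of its own. Serpinb6c, Serpinb11, Serpinb1a and Serpinb3b kept their direction and their call under all 13 alternatives, with log2 fold changes of 2.59 to 2.86, 2.22 to 2.66, 2.004 to 2.49 and 0.76 to 1.03. Over all members, 173 values kept direction and side of the threshold, 25 lost the call, 1 gained it and 6 reversed. The reversed values were Serpinb8 (0.16 under median scaling, 0.028 under quantile normalization), Serpinb5 (0.026 under median scaling) and Serpinb2 (-0.044 by TPM, -0.079 without control 1, -0.48 without knockout 1). Without knockout 2 the value of Serpinb2 was 0.49, in the direction of its main value. Members called higher were 4 with no filter and 7 to 8 with a library left out. Members called lower were 3 with FPKM above 1 in at least 2 libraries, 2 with no filter, 3 under median scaling, and 2 to 5 with a library left out (2 without control 2, 3 without control 1 and without knockout 2). Their median was 0.83 with the stricter filter, which drops the 2 lowest members, 0.21 under median scaling and -0.078 to 0.49 with a library left out. Of all genes, 475 were higher and 927 lower with no filter, 1894 and 1623 under median scaling, 1683 and 1917 under quantile normalization, and 497 to 1146 and 805 to 3135 with a library left out (497 and 805 without control 1, 542 and 810 without control 2). The causes were not tested. The replicate numbers name separate pups. With them as a block, 7 members were higher and 4 lower, with Serpinb6b the only call to change (-0.47, adjusted p = 0.0715). The count of members above the threshold of expression was 19 at FPKM 0.1, 15 at FPKM 1, 14 at 0.5 in all libraries and 19 by TPM.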
